A study of Mus musculus with 24 samples.

Results

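Transcripts of the liver of wild-type C57BL/6 mice were compared with those of small intestinal epithelium from wild-type mice of the same strain. The members were taken by tissue and genotype label, which gave 12 of the 24 arrays of the series, 3 of liver and 9 of small intestine, the last made of 3 arrays each from duodenum, jejunum and ileum. All mice were males of 14 to 16 weeks on chow. Livers came from wild-type mice fasted for 16 h. Intestines came from wild-type mice that were fasted overnight, given 200 µL of olive oil into the stomach and sampled 2 h later. The gut tube was cut into its segments and the epithelial layer was scraped off, whereas liver was sampled as a whole tissue. The other 12 arrays came from Casp1-null mice, which lack the protease of inflammasomes, had been backcrossed to C57Bl/6 and were sampled in the same way. They served as a second set of samples, with the wild-type mice as age-matched controls. Organ, oil feeding and scraping changed together between the groups and cannot be told apart. The labels do not link an array to a mouse, so the p-values measure the spread between these samples. In pieces of tissue such as these, fewer cells of a type and less RNA per cell cannot be told apart either.

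Liver and small intestine are linked by the portal vein and by bile. Enterocytes digest peptides and sugars at their brush border, take up fat as fatty acid and monoacylglycerol, and send it out in chylomicrons. Hepatocytes make most plasma proteins, make bile acids from cholesterol, store glycogen, release glucose and make urea from ammonia. Both cell types build lipoproteins around apolipoprotein B and depend on nuclear receptors of the HNF4 family.

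Values are the authors' log2 expression values, centred here so that the 12 arrays share a median of 5.004. Differences are liver minus the mean of the 3 segment means. A gene was called when its difference was larger than 2-fold at an adjusted p under 0.05 (limma's treat test). Where the lower group's mean lay under the shared median, its level was not shown above background and the fold is given as a lower bound. Centring moved the median difference over all probe sets to -0.20, against 0.070 in the values as deposited, so small differences are read relative to that shift.

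Liver and gut differed in a large part of the transcriptome. Of 35556 probe sets, 5281 were called (14.9%), 2241 of them higher in liver (6.3%) and 3040 lower in liver (8.55%). The balance of the directions rested on the scaling: 42.4% of the calls were higher in liver after centring, 56% in the values as deposited and 49.5% after quantile normalization. With no minimum size, 24098 probe sets differed (67.8%), 23.7% higher in liver and 44.1% lower. Of these 34.9% were higher in liver after centring and 56.8% in the values as deposited. Counted over 18820 genes, 1683 genes were higher in liver (8.94%) and 2200 lower (11.7%), and 723 genes differed by at least 16-fold, 366 of them higher in liver and 357 lower. At the other end, 11435 genes (60.8%) had a 95% interval that lay within 2-fold either way. That count includes genes under the shared median in both organs, whose levels were not shown above background. Arrays of the same group correlated at 0.979 to 0.993 over all probe sets, arrays of different gut segments at 0.944 to 0.985, and liver arrays with gut arrays at 0.813 to 0.842.

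**Figure D1:**
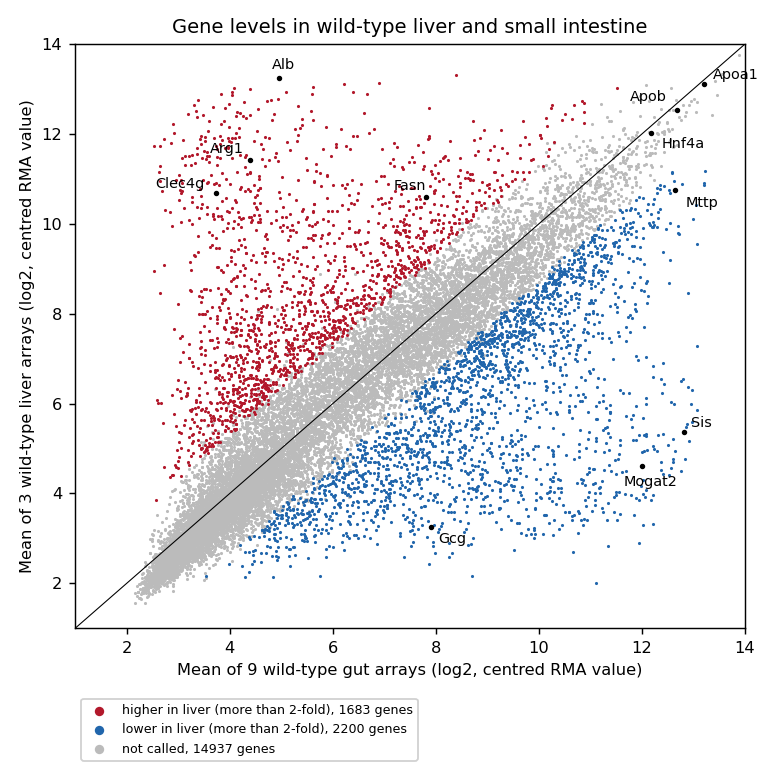
Each point is a gene, with its mean over the 9 gut arrays on the x axis and over the 3 liver arrays on the y axis (log2, centred), and the line marks equal levels. The 1683 genes called higher in liver (red) and the 2200 called lower (blue) lie on both sides of a band of 14937 genes that were not called, which holds Apoa1, Apob and Hnf4a.

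The tissue labels were borne out by defining markers. Alb, serum albumin, stood at 13.24, 13.23 and 13.27 on the liver arrays, against 4.18 to 7.22 (median 4.52) on the gut arrays. Of the gut arrays, 2 of duodenum held the highest Alb values, at 7.22 and 5.83. Vil1, villin of the microvilli, stood at 4.99, 5.36 and 4.86 on the liver arrays, against 12.19 to 12.69 (median 12.51) on the gut arrays. For both genes the groups did not overlap, as was the case with all liver arrays above in 20.5% of genes and below in 36.5%. A pair of gut arrays stood apart by transcripts of other tissues. Duodenum array 1 had a mean level of 10.2 over 16 exocrine pancreas genes, against 5.62 to 5.86 on the other gut arrays, with Ctrb1, chymotrypsinogen, at 12.49. Ileum array 2 had a mean level of 8.68 over 12 smooth muscle and stroma genes, against 4.33 to 4.74 on the other gut arrays. The fat-cell genes Fabp4, at 8.70, and Lpl, at 8.76, were also high there. Without those 2 arrays 5663 probe sets were called.

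The largest bounded differences toward liver were those of secreted and metabolic hepatocyte genes. The 15 named here had the largest difference when a gut mean under the shared median was set to that median, among called genes whose liver and gut arrays did not overlap, so that genes with a larger plain difference, such as Itih2, may be absent. They were Alb, Ahsg, Cyp2e1, Vtn, Fgg, Hpx, Car3, Pzp, Cyp2f2, Kng1, Serpina1c, Apoc1, Slc38a3, Mup20 and Fgb. Alb was at least 303-fold higher in liver (adjusted p = 3.56e-08). Ahsg, a carrier of calcium phosphate in plasma, stood at 13.02, 12.97 and 13.05 on the liver arrays, against 3.70 to 4.53 (median 3.96) on the gut arrays, at least 257-fold higher in liver (adjusted p = 9.13e-15). Serpina1c and Mup20 belong to families of near-identical genes, so their signal may include that of relatives. Car3, a carbonic anhydrase of liver, muscle and fat, stood at 12.95, 12.93 and 12.95 on the liver arrays, against 3.66 to 11.41 (median 4.24) on the gut arrays. The high gut value of Car3 came from ileum array 2, and the next highest gut array was at 5.49. Cyp2e1, a cytochrome of ethanol and ketone metabolism, also had its gut maximum of 9.77 there, with a median of 3.79. Without ileum array 2 and duodenum array 1, the differences were 8.58 for Car3 and 9.27 for Cyp2e1, against 7.84 and 8.61 with all arrays.

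The largest bounded differences toward gut were those of mucins, brush border and adhesion genes. The 15 named by the same bounded difference, which leaves out genes with a larger plain difference such as Cyp2c65, were Clca1, Muc13, Krt20, Muc3, Aoc1, Cdh17, Gpa33, Mep1b, Sis, Vil1, Slc15a1, Pls1, B4galnt2, Reg3b and Clca4b. Sis, sucrase-isomaltase, stood at 5.26, 5.90 and 4.95 on the liver arrays, against 12.33 to 13.17 (median 12.78) on the gut arrays, 174-fold lower in liver (adjusted p = 1.78e-11). Krt20, a keratin of differentiated enterocytes, stood at 4.38, 4.94 and 4.20 on the liver arrays, against 12.35 to 12.94 (median 12.79) on the gut arrays, at least 214-fold lower in liver (adjusted p = 9.14e-13). Slc15a1, the brush border peptide carrier, stood at 4.002, 5.06 and 4.24 on the liver arrays, against 11.77 to 12.83 (median 12.34) on the gut arrays. Liver values of these 3 genes lay near or under the shared median.

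**Figure D2:**
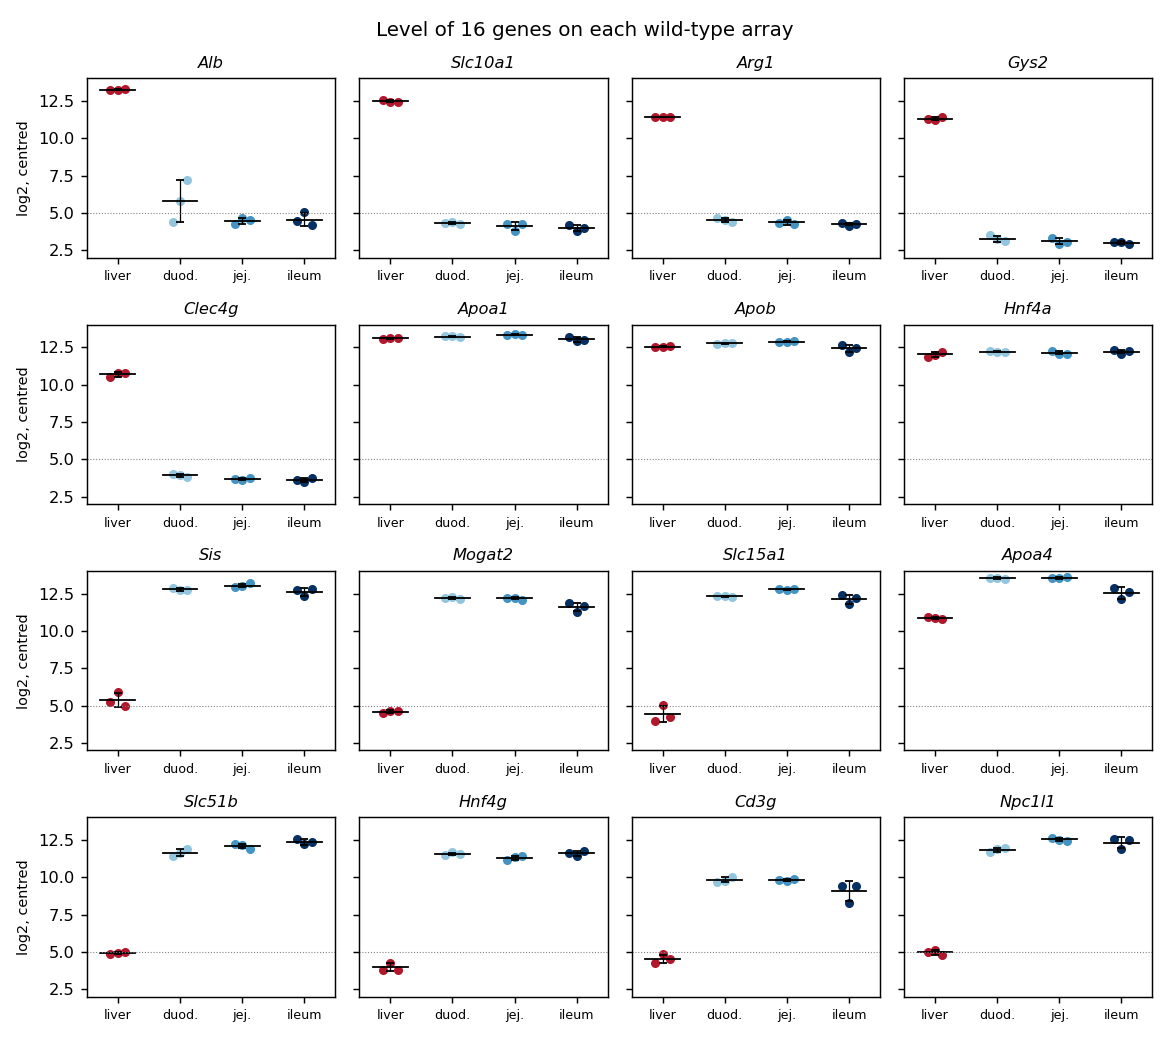
Each panel shows 1 gene, with 3 points for the arrays of liver (red) and of each gut segment (blue shades), bars for the mean ± SD (n = 3) and a dotted line at the shared median of 5.004 (log2, centred). Alb, Slc10a1, Arg1, Gys2 and Clec4g are high in liver only, Apoa1, Apob and Hnf4a are level across organs, and the other 8 genes are higher in gut.

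Promoter sequences of 2 genes with opposite organ differences are shown because the same letters, those of a binding motif of the HNF4 factors of hepatocytes and enterocytes, occur in promoters of both. Each run covers 250 bases before and 50 after the annotated start (RefSeq, GRCm38.p6), with the matched motif in capitals.
Cyp8b1 (chr9:121916256-121916555, minus strand): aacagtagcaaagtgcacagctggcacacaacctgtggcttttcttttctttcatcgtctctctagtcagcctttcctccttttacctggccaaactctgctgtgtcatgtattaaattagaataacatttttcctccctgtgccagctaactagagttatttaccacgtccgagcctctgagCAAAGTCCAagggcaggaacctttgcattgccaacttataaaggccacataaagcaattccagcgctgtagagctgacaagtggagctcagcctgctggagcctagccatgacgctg
Alpi (chr1:87101557-87101856, minus strand): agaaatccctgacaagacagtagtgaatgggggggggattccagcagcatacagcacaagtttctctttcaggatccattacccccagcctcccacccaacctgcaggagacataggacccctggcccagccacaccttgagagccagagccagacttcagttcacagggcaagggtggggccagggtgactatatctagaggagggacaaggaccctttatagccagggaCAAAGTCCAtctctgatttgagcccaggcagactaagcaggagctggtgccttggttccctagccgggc
Cyp8b1, which makes the precursor of cholic acid, holds the HNF4 letters CAAAGTCCA from 67 bases before its start and was at least 46.4-fold higher in liver. Alpi, intestinal alkaline phosphatase, holds them from 19 bases before its start and was 142-fold lower in liver. Read on both strands, the HNF4 letters were found in 0.475% of 32851 promoters. They were found in 1.29% of 1317 genes higher in liver, 0.976% of 1741 genes lower in liver and 0.368% of 11681 genes that were not called. A gene was counted when any of its promoters held the letters, so the shares of genes and of promoters are not in the same unit. The genes shown were chosen after their values were known, and the shares were not tested.

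Proteins of blood plasma were nearly all higher in liver. Of the plasma carriers, 24 of 25 measured genes were higher in liver, and the list's median difference was 8.14, or 7.15 with levels under the shared median set to it, against -0.21 and 0 over all genes. A1bg was the exception, with means of 2.73 in liver and 2.84 in gut, both under the shared median. Itih2, a heavy chain that stabilizes hyaluronan, stood at 12.37, 12.34 and 12.45 on the liver arrays, against 3.18 to 3.46 (median 3.39) on the gut arrays. Ttr, the carrier of thyroid hormone and retinol-binding protein, stood at 12.93, 12.83 and 12.93 on the liver arrays, against 5.44 to 5.83 (median 5.57) on the gut arrays. Trf, transferrin, stood at 13.08, 13.09 and 13.14 on the liver arrays, against 5.05 to 10.25 (median 5.84) on the gut arrays. For all 3 every liver array lay above every gut array, as was the case in 20.5% of all genes.

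Most clotting and complement genes were higher in liver. Of the clotting list 18 of 22 genes were higher in liver and 1 was lower. F2, prothrombin, stood at 12.44, 12.40 and 12.54 on the liver arrays, against 3.76 to 4.51 (median 4.25) on the gut arrays, at least 176-fold higher (adjusted p = 1.84e-14). Kng1, kininogen, was at least 214-fold higher and Fgg, the gamma chain of fibrinogen, at least 236-fold higher. Plat, the tissue plasminogen activator, was the member lower in liver, at 4.31, 4.09 and 3.81 on the liver arrays, against 5.19 to 9.12 (median 8.40) on the gut arrays. F3, tissue factor, was not called, at 6.60 ± 0.19 in liver and 6.42 ± 0.88 in gut (SD, n = 3 and 9). In the complement list 15 of 16 genes were higher in liver. Hc, complement component C5, was at least 118-fold higher. Cfb, factor B of the alternative pathway, had the smallest difference of those called in this list, at 1.48 ± 0.10 (SE), with gut arrays already at 9.80 to 10.57 (median 10.09). Cd55, which protects host cells from complement, was not called, at 7.37 ± 0.081 in liver and 8.92 ± 0.55 in gut, and was called lower without duodenum array 2, jejunum array 2 or ileum array 2. Of the acute phase list 6 of 9 genes were higher in liver, among them Crp and Saa4, while Cd14, a receptor for bacterial lipopolysaccharide, was lower, at 4.19, 4.38 and 4.17 on the liver arrays, against 5.86 to 6.54 (median 6.15) on the gut arrays.

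Bile acid genes were called in both directions. Of the genes for bile acid synthesis and hepatic transport, 20 of 21 were higher in liver. Cyp7a1, the rate-limiting enzyme of the classic pathway, stood at 10.13, 10.94 and 10.97 on the liver arrays, against 2.85 to 3.18 (median 3.08) on the gut arrays, at least 51.1-fold higher in liver (adjusted p = 5.07e-12). Slc10a1, the sodium-coupled uptake carrier of hepatocytes, stood at 12.58, 12.42 and 12.45 on the liver arrays, against 3.79 to 4.38 (median 4.23) on the gut arrays. Abcb11, the bile salt export pump, stood at 11.42, 11.25 and 11.23 on the liver arrays, against 2.97 to 3.50 (median 3.25) on the gut arrays. The gut values of all 3 lay under the shared median. Cyp27a1, which starts the alternative pathway, had gut arrays at 7.90 to 10.06 (median 9.68) and a smaller difference of 2.42 ± 0.17. Nr1h4, the bile acid receptor FXR, was not called, at 10.14 ± 0.25 in liver and 9.88 ± 0.81 in gut. Of the 5 genes of intestinal reclaim 3 were lower in liver. Slc51b, a subunit of the basolateral exporter, stood at 4.87, 4.96 and 4.98 on the liver arrays, against 11.45 to 12.55 (median 12.14) on the gut arrays. Fabp6, the bile acid binding protein of ileum, differed along the gut, at 3.76 ± 0.32 in duodenum, 5.58 ± 2.61 in jejunum and 12.54 ± 0.17 in ileum, against 3.13 ± 0.19 in liver. Fgf15, the hormone that signals from ileum to liver, was not called against the segment mean, at 7.17 in ileum and 4.17 in liver. Its hepatic receptor pair, Fgfr4 and Klb, was higher in liver by at least 14.6-fold and at least 24.9-fold.

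Enzymes of amino acid breakdown were another liver-sided group, with 22 of 25 genes higher. Tdo2, which opens the tryptophan ring, stood at 12.18, 12.20 and 12.29 on the liver arrays, against 2.79 to 3.01 (median 2.91) on the gut arrays. Mat1a, the liver form of methionine adenosyltransferase, was at least 191-fold higher and Hgd, of tyrosine breakdown, at least 133-fold higher. Cth, Oat and Got1 were not called, with differences of 1.22 ± 0.10, 1.20 ± 0.13 and -0.27 ± 0.12. In the values as deposited Cth and Oat were called higher. The urea cycle had 5 of 9 genes higher in liver and 4 not called. Arg1, arginase, stood at 11.40, 11.42 and 11.43 on the liver arrays, against 4.16 to 4.67 (median 4.32) on the gut arrays, at least 85.2-fold higher (adjusted p = 8.01e-14). Cps1, which fixes ammonia, stood at 12.78, 12.73 and 12.68 on the liver arrays, against 9.87 to 11.39 (median 10.81) on the gut arrays, so that the gut level was high as well. Otc, which makes citrulline, was not called, with a difference of 1.17 and a 95% interval of 0.98 to 1.35, and it was called higher in the values as deposited. Enzymes of glutamine use ran in both directions. Asns, asparagine synthetase, stood at 6.02, 5.87 and 5.55 on the liver arrays, against 8.79 to 10.87 (median 10.32) on the gut arrays. Aldh18a1, which starts proline and citrulline synthesis from glutamate, was 21.4-fold lower in liver. Gpt2, a mitochondrial alanine aminotransferase, was 38.4-fold higher in liver.

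Of 16 genes of glucose production and glycogen 11 were higher in liver. Gys2, the liver glycogen synthase, stood at 11.29, 11.23 and 11.43 on the liver arrays, against 2.90 to 3.50 (median 3.07) on the gut arrays. Gckr, the inhibitor of glucokinase, was at least 37.1-fold higher and Gcgr, the glucagon receptor, at least 43.8-fold higher. Ugp2, which makes the glucose donor of glycogen, had a smaller difference of 1.30 ± 0.10, and its call was lost under 10 alternatives, among them leaving out any 1 liver array. Pck1, of gluconeogenesis, stood at 12.33, 11.77 and 12.17 on the liver arrays, against 7.68 to 10.56 (median 9.31) on the gut arrays. Fbp1, a later step, had a difference of 2.39 ± 0.29. G6pc, the last step of glucose release, was not called: it stood at 12.44, 11.12 and 11.87 in liver, against 10.18 ± 0.26 in duodenum, 10.40 ± 0.63 in jejunum and 9.90 ± 0.99 in ileum (SD, n = 3 each). Slc2a2, the basolateral glucose carrier, was not called either, at 11.05 ± 0.015 in liver, 12.02 ± 0.11 in duodenum, 11.86 ± 0.062 in jejunum and 7.42 ± 1.89 in ileum. Slc2a5, the fructose carrier of the brush border, was 26.3-fold lower in liver, whereas Khk, ketohexokinase, was not called, with a difference of 0.15 and an interval of -0.33 to 0.63.

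Lipoprotein genes were divided among those higher in liver, those lower and those not called. Of 26 genes 8 were higher in liver, 4 lower and 14 not called, and the median difference was -0.12. Over all genes 8.94% were called higher and 11.7% lower, so this list held more calls than genes at large. Apob, the structural protein of chylomicrons and very-low-density lipoproteins, stood at 12.50, 12.51 and 12.57 on the liver arrays, against 12.16 to 12.88 (median 12.75) on the gut arrays, and its 95% interval was -0.35 to 0.053. Apoa1, of high-density lipoproteins, stood at 13.07, 13.15 and 13.09 on the liver arrays, against 12.89 to 13.36 (median 13.23) on the gut arrays, with an interval of -0.26 to 0.077. For Apoa1 the liver arrays lay inside the range of the gut arrays, and for neither gene was a difference of 2-fold within the interval. Mttp, the lipid transfer protein that loads apolipoprotein B, stood at 10.77, 10.65 and 10.81 on the liver arrays, against 11.72 to 13.01 (median 12.90) on the gut arrays, 3.71-fold lower in liver (adjusted p = 1.59e-05). Apoa4, a chylomicron apolipoprotein, stood at 10.91, 10.86 and 10.79 on the liver arrays, against 12.12 to 13.63 (median 13.51) on the gut arrays. Tm6sf2, a membrane protein of lipoprotein enrichment, was 5.98-fold lower and Plin3, a lipid droplet coat protein, 13.6-fold lower. The members higher in liver were other exchangeable apolipoproteins and carboxylesterases. Apoa5 was at least 85.9-fold higher, Apoc1 at least 210.2-fold higher and Apoe 30.6-fold higher. Apoc3 was not called, at 12.76 ± 0.041 in liver and 11.96 ± 1.03 in gut. Lpl, lipoprotein lipase, was not called over all arrays, at 6.51, 7.08 and 7.01 on the liver arrays, against 3.39 to 8.76 (median 3.62) on the gut arrays, with the gut maximum on ileum array 2. Without ileum array 2 and duodenum array 1 it was called higher in liver, with a difference of 3.29. In the list of lipoprotein clearance, Lcat, the cholesterol esterifying enzyme of plasma, was at least 140.2-fold higher in liver and Npc1l1, the cholesterol uptake protein of the brush border, at least 150.2-fold lower.

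Enzymes of triacylglycerol synthesis were called in both directions. Of the list of fatty acid uptake and glycerolipid synthesis 7 of 26 genes were higher in liver, 8 lower and 11 not called. Mogat2, the acyltransferase of the monoacylglycerol pathway, stood at 4.49, 4.67 and 4.66 on the liver arrays, against 11.28 to 12.24 (median 12.15) on the gut arrays, at least 127-fold lower in liver (adjusted p = 3.04e-13). Dgat1, which makes the last bond of triacylglycerol, was 14.4-fold lower, while its partner Dgat2 was not called, with a difference of -0.25 and an interval of -0.54 to 0.042. Gpat3 was 23.2-fold lower in liver, whereas Gpam, the mitochondrial enzyme of the same first step, was 25.4-fold higher. Lpin1, a phosphatidate phosphatase, was 24.9-fold higher and its relative Lpin3 9.81-fold lower. Fatty acid synthesis leaned to liver, with 11 of 17 genes higher. Scd1, the delta-9 desaturase, stood at 13.17, 13.04 and 13.15 on the liver arrays, against 4.50 to 11.47 (median 6.58) on the gut arrays. Fads1 was 61.4-fold higher, and Fasn, fatty acid synthase, 6.87-fold higher. Elovl7, an elongase, was the member lower in liver, by at least 38.3-fold. Elovl6 was not called, with a difference of -0.14 ± 0.10. In cholesterol synthesis 0 of 17 genes were higher in liver by treat (1 at an unadjusted p under 0.05, and 6 with no minimum size), and Srebf2, a regulator of the pathway, was lower. Sqle and Hmgcs1 were not called, at -0.59 ± 0.31 and -0.85 ± 0.26.

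Most genes of fatty acid oxidation were not called at the 2-fold minimum. Of 24 genes 6 were higher in liver, 2 lower and 16 not called. Over all genes 8.94% were called higher and 11.7% lower, so this list held a larger share of higher calls than genes at large. With no minimum size 15 were higher and 7 lower, and the list's median difference was 0.60. A gene that was not called may still differ by more than 2-fold. Cpt1a, which admits fatty acids to mitochondria, had a difference of 0.93 and an interval of 0.63 to 1.22. Hadha, of the trifunctional protein, had -0.25 and -0.42 to -0.083. Ppara, the fatty acid receptor that drives this program in fasting, stood at 10.63, 10.92 and 11.10 on the liver arrays, against 7.87 to 8.77 (median 8.12) on the gut arrays, 6.21-fold higher in liver. Cyp4a14, one of its targets, was at least 96.0-fold higher. Oxct1, the enzyme that lets tissues burn ketone bodies and that hepatocytes lack, stood at 4.79, 4.83 and 5.07 on the liver arrays, against 8.23 to 10.34 (median 9.51) on the gut arrays, at least 19.6-fold lower in liver (adjusted p = 5.03e-10). Pdk4, another fasting gene, stood at 7.92, 6.17 and 6.36 on the liver arrays, against 7.05 to 10.96 (median 9.60) on the gut arrays, and its call was lost in the values as deposited, after quantile normalization and without liver array 2 or 3. Respiratory chain subunits had 0 calls among 14 genes in limma's treat test, with 0 higher and 0 lower at an unadjusted p under 0.05. By limma with no minimum size 12 of them were lower in liver, and the list's median was -0.47.

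Genes of drug metabolism were called in both directions. Of the cytochromes P450 12 of 27 genes were higher in liver and 8 lower. Cyp2c65 stood at 2.08, 1.98 and 1.94 on the liver arrays, against 9.87 to 12.22 (median 10.97) on the gut arrays, at least 69.1-fold lower in liver. Its relative Cyp2c50 stood at 10.87, 10.61 and 10.68 on the liver arrays, against 2.48 to 3.14 (median 2.65) on the gut arrays, at least 52.5-fold higher. Cyp2s1 was 20.2-fold lower and Cyp1a2, of caffeine metabolism, at least 114-fold higher. Cyp3a11, the main inducible cytochrome of its family in mouse, was not called, at 0.93 ± 0.19. Some of these genes have near-identical neighbours, and their probe sets may share signal. Of the conjugating enzymes 17 of 31 were higher in liver and 6 lower. Ugt2b1, a glucuronosyltransferase, was at least 117-fold higher. Gpx2, the glutathione peroxidase of gut epithelium, stood at 3.82, 4.25 and 3.97 on the liver arrays, against 9.81 to 12.12 (median 11.65) on the gut arrays. Sult2b1, a sulfotransferase of cholesterol, was at least 81.1-fold lower and Adh6a, an alcohol dehydrogenase, at least 58.6-fold lower. Uox, urate oxidase, was at least 130.3-fold higher in liver.

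Iron genes were called in both directions. Of 17 genes 9 were higher in liver and 4 lower, and the lower calls of Cybrd1 and Slc11a2, the reductase and carrier of iron uptake at the brush border, were lost in the values as deposited and after quantile normalization. Slc40a1, the exporter, was among the genes higher in liver, although its duodenal level lay above that of liver. Hamp, hepcidin, stood at 11.26, 11.02 and 11.13 on the liver arrays, against 3.67 to 5.69 (median 4.01) on the gut arrays, at least 70.1-fold higher in liver. Tfr2 and Hjv, which report body iron to hepcidin, were at least 37.3-fold and at least 52.7-fold higher. Heph, the ferroxidase of enterocyte export, stood at 4.58, 4.54 and 4.59 on the liver arrays, against 10.30 to 11.28 (median 11.07) on the gut arrays, at least 62.7-fold lower in liver. Tfrc, the transferrin receptor, was 4.48-fold lower. Of the growth hormone axis 9 of 11 genes were higher in liver. Igf1 stood at 11.49, 11.40 and 11.46 on the liver arrays, against 4.22 to 6.42 (median 4.45) on the gut arrays, at least 87.3-fold higher, and Ghr, the growth hormone receptor, was 26.3-fold higher. Socs2, a target of the receptor, was not called, at 1.23 ± 0.19, and was called higher without liver array 2. In retinoid handling, Rbp4, which carries retinol in plasma, was 92.5-fold higher in liver and Rbp2, which carries it inside enterocytes, 80.9-fold lower.

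Brush border hydrolases were lower in liver for 18 of 20 genes. Mep1b, a meprin subunit, stood at 4.26, 4.44 and 4.51 on the liver arrays, against 12.30 to 12.65 (median 12.57) on the gut arrays. Lct, lactase, depended on the segment, at 11.99 ± 0.46 in duodenum, 12.61 ± 0.035 in jejunum and 6.20 ± 1.20 in ileum, against 4.84 ± 0.48 in liver. Its liver values overlapped those of ileum. Anpep, aminopeptidase N, was high in both organs and still 4.89-fold lower in liver, at 10.77, 10.94 and 11.04 on the liver arrays, against 13.03 to 13.34 (median 13.25) on the gut arrays. Dpp4, which trims incretin hormones, was 4.53-fold lower. Of the absorptive transporters 23 of 29 genes were lower and 1 was higher. Slc5a1, the sodium-glucose carrier, stood at 6.15, 6.28 and 5.52 on the liver arrays, against 12.30 to 13.27 (median 13.06) on the gut arrays. Slc6a19, for neutral amino acids, was at least 130.1-fold lower, and Slc9a3, the sodium-proton exchanger, at least 44.3-fold lower. Slc23a1, a vitamin C carrier, was the gene higher in liver, by 5.27-fold. Abcc2, an apical export pump of both organs, was not called, at 0.63 ± 0.25. Of the hepatocyte transporters 10 of 19 were higher in liver. Slc38a4, an amino acid carrier, was at least 172-fold higher and Aqp9, a glycerol channel, at least 103-fold higher.

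Most structural genes of the gut epithelium were lower in liver. Of that list 29 of 32 were lower in liver. Cdh17, liver-intestine cadherin, stood at 4.41, 5.04 and 4.67 on the liver arrays, against 12.28 to 12.75 (median 12.66) on the gut arrays. Epcam, an adhesion molecule of epithelia, stood at 5.33, 5.31 and 5.32 on the liver arrays, against 12.16 to 12.62 (median 12.43) on the gut arrays. Myo1a, the motor of the microvillus, was at least 114-fold lower. Krt8 was 4.15-fold lower in liver, at 11.12, 11.41 and 10.995 on the liver arrays, against 13.13 to 13.32 (median 13.22) on the gut arrays, whereas its keratin partner Krt18 was not called, at -0.72 ± 0.10. Cldn2, a pore-forming claudin, was not called, with an interval of -0.25 to 0.60. Of the surface and junction genes of hepatocytes 10 of 16 were higher. Asgr1, the asialoglycoprotein receptor, was at least 59.5-fold higher, Cdh2, N-cadherin, at least 41.2-fold higher and Gjb1, a gap junction protein, 8.50-fold higher.

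**Figure D3:**
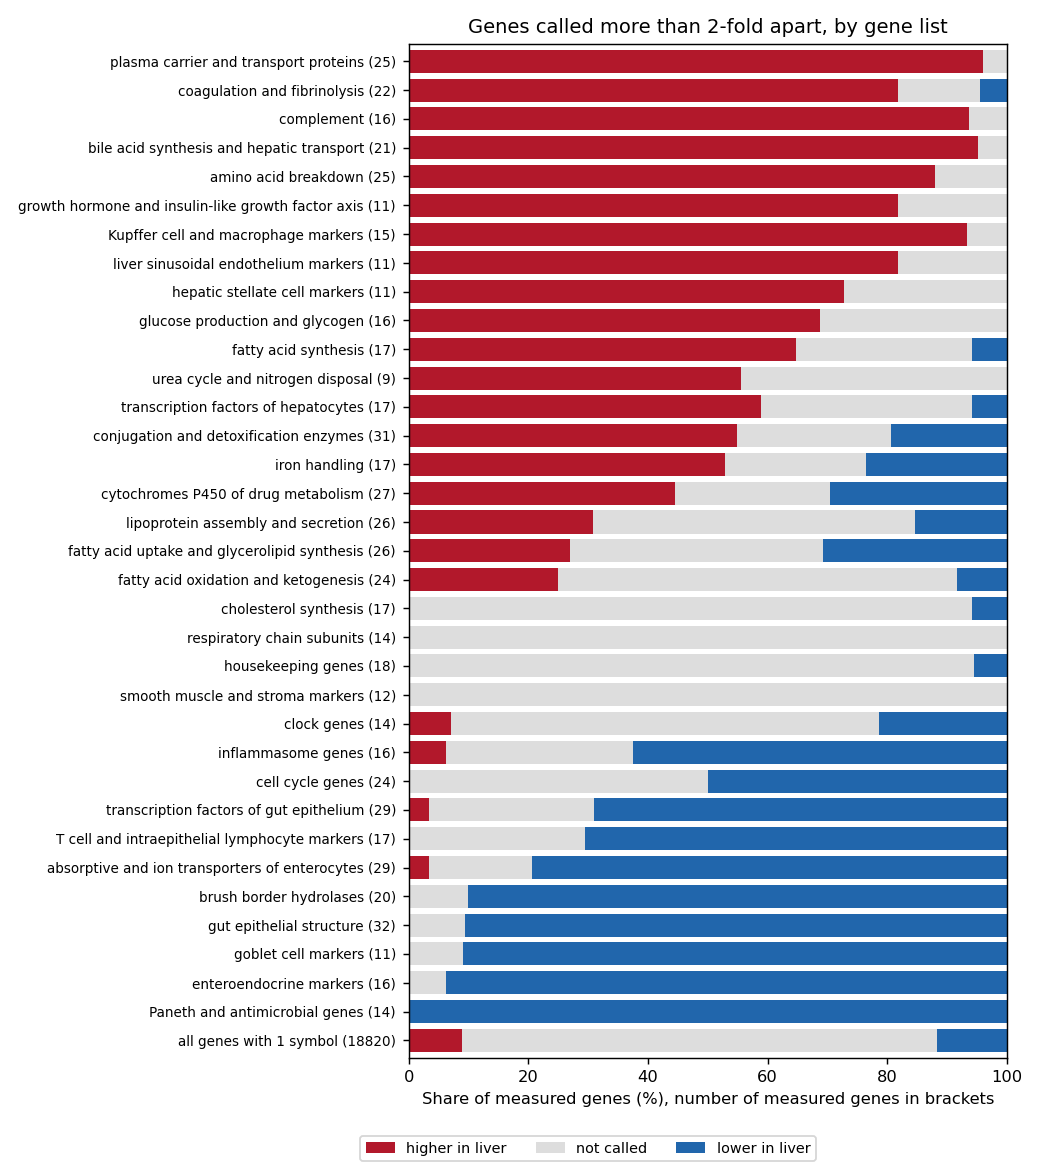
Each bar is a gene list, with the share of its measured genes (x axis, %) that was called higher in liver (red), not called (grey) or called lower in liver (blue), and the bottom bar shows all 18820 genes. Plasma, clotting, complement, bile acid and amino acid genes lie at the liver end, Paneth, goblet and enteroendocrine genes at the gut end, and lipid, respiratory and housekeeping lists between them.

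Transcription factors of each organ were called in part. Of the hepatocyte factors 10 of 17 were higher in liver. Onecut1 was at least 35.7-fold higher, Prox1 at least 27.2-fold higher and Cebpa 6.45-fold higher. Hnf4a, listed for liver, stood at 11.85, 12.00 and 12.19 on the liver arrays, against 12.05 to 12.31 (median 12.19) on the gut arrays, with an interval of -0.35 to 0.037, so that the organs differed by less than 2-fold. Its relative Hnf4g stood at 3.80, 4.27 and 3.82 on the liver arrays, against 11.16 to 11.77 (median 11.49) on the gut arrays, at least 89.4-fold lower in liver (adjusted p = 4.78e-13). Foxa1 and Nr5a2 were not called, at 0.89 ± 0.21 and 1.29 ± 0.19, with Nr5a2 called higher in the values as deposited. Of the gut factors 20 of 29 were lower in liver. Cdx2, which sets intestinal identity, was at least 13.7-fold lower, Klf5 at least 89.3-fold lower and Vdr, the vitamin D receptor, at least 87.9-fold lower. Gata6 was 9.25-fold lower, while Sox9 was not called, at 6.95 ± 0.15 in liver and 6.87 ± 0.46 in gut. Onecut2 was 6.65-fold higher in liver than the segment mean, but it was not called against duodenum. It stood at 10.11 ± 0.11 in liver, 9.99 ± 0.024 in duodenum, 7.18 ± 0.33 in jejunum and 4.97 ± 0.18 in ileum.

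Families with a member in each organ put these patterns side by side. Of 22 measured pairs, 9 had the liver-associated member higher and the gut-associated member lower, 3 had the liver-associated member higher and the other not called, and 7 had the gut-associated member lower and the other not called. Both members were higher in liver in 1 pair, Onecut1 and Onecut2, the gut-associated member alone was higher in 1, Gpt and Gpt2, and neither was called in 1, Fgf21 and Fgf15. Onecut2 was called against the segment mean but not against duodenum. The carriers Slc7a2 and Slc7a9, for cationic amino acids and cystine, differed by 7.72 ± 0.14 and -7.35 ± 0.14. Cdh2 and Cdh17 differed by 6.81 ± 0.19 and -7.89 ± 0.12. Cldn1 and Cldn7 differed by 6.33 ± 0.58 and -6.39 ± 0.11. These 3 pairs were divided in both directions. Pygl and Pygb, phosphorylases of glycogen, also were, but the call of Pygb (-1.60) was lost in the values as deposited and without any 1 of the 3 liver arrays. In the pairs Hnf4a and Hnf4g, Mogat1 and Mogat2, Dgat2 and Dgat1, and Fabp1 and Fabp2, the gut-associated gene was lower in liver and the liver-associated gene was not called. Mogat1 lay under the shared median in both organs. Fabp1, the fatty acid binding protein named for liver, stood at 12.40, 12.47 and 12.63 on the liver arrays, against 8.74 to 12.89 (median 12.75) on the gut arrays. Fabp2, named for intestine, stood at 9.50, 9.57 and 9.56 on the liver arrays, against 12.59 to 13.34 (median 13.10) on the gut arrays. In alanine aminotransferases the order was the other way, with Gpt at -0.78 ± 0.16 and Gpt2 at 5.26 ± 0.24.

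**Figure D4:**
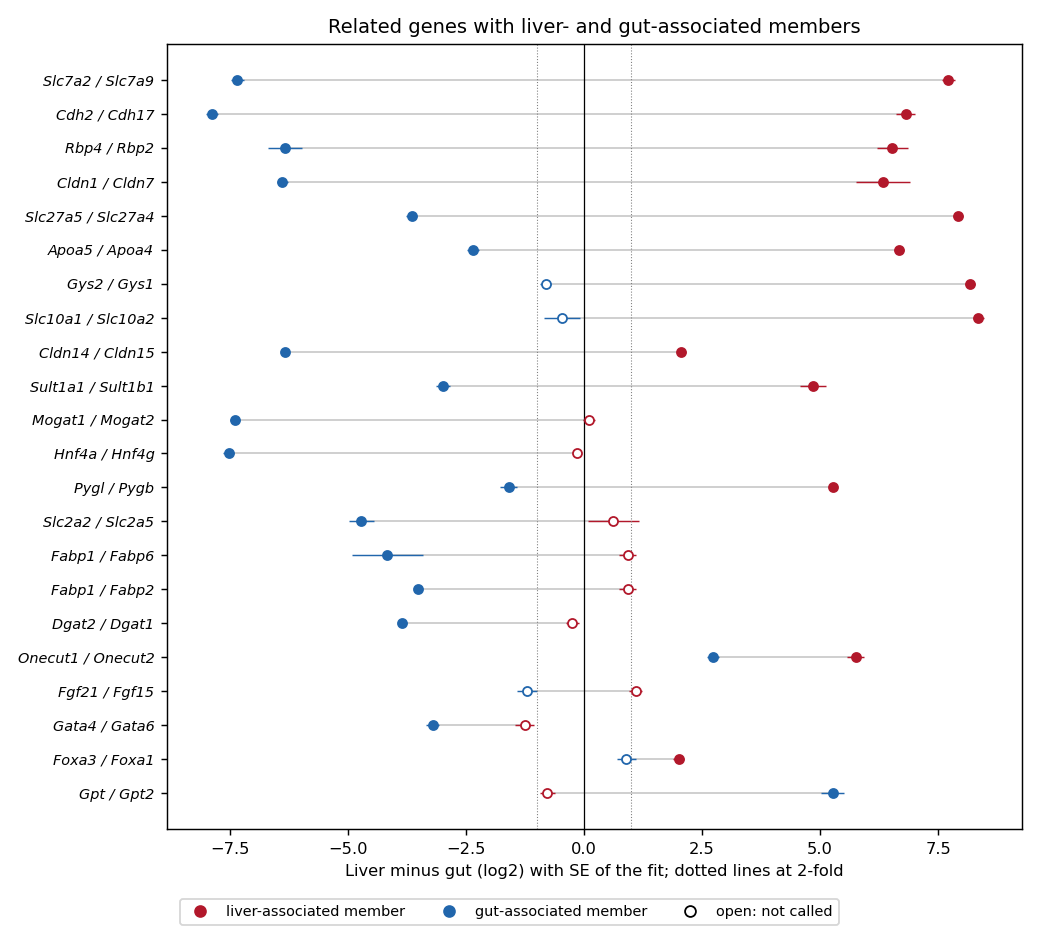
Each row is a pair of related genes, with the liver minus gut difference (log2, x axis) of the liver-associated member (red) and the gut-associated member (blue), SE of the fit as bars and open symbols for genes that were not called. The 9 divided pairs span zero with both symbols filled, and Gpt and Gpt2 lie in the opposite order.

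Genes of secretory cells of the crypt and villus were lower in liver. Of the Paneth and antimicrobial genes 14 of 14 were lower in liver. Reg3b, a bactericidal lectin, stood at 5.47, 6.11 and 5.21 on the liver arrays, against 12.16 to 13.22 (median 13.05) on the gut arrays. Lyz1, lysozyme of Paneth cells, was 47.2-fold lower. The mean level of this list was 3.96 to 4.25 on liver arrays, against 8.04 to 8.63 in duodenum, 9.47 to 9.90 in jejunum and 10.3 to 10.6 in ileum. Of the goblet cell genes 10 of 11 and of the enteroendocrine genes 15 of 16 were lower in liver. Muc2, the main mucin of goblet cells, stood at 5.18, 6.05 and 5.43 on the liver arrays, against 12.35 to 13.24 (median 12.88) on the gut arrays. Chga, chromogranin A, was at least 24.6-fold lower and Gip, an incretin, at least 12.3-fold lower. Of the cell cycle genes 12 of 24 were lower in liver, or 7 of 24 in the values as deposited. Mki67, a proliferation antigen, stood at 4.52, 4.66 and 4.75 on the liver arrays, against 5.93 to 9.54 (median 7.77) on the gut arrays. Of the tuft and stem cell genes 1 of 10 was higher in liver, 4 were lower and 5 were not called. The list's median difference was -0.97, and the lower members were Dclk1, Olfm4, Pou2f3 and Trpm5. Lgr5, a receptor of stem cells in gut and of hepatocytes near the central vein, was the member higher in liver, by 4.37-fold. It stood at 7.24, 7.83 and 7.23 on the liver arrays, against 4.32 to 7.86 (median 4.64) on the gut arrays. Its call was lost without liver array 2.

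Markers of other liver cells were mostly higher in liver. Of the macrophage genes 14 of 15 were higher in liver, with a mean level of 7.83 to 8.29 on liver arrays and 4.66 to 5.44 on gut arrays. Of these 14, 8 were also called higher in the Casp1-null set, and 1 of them, Slc40a1, was lower in liver than in duodenum. Clec4f, a lectin of Kupffer cells, stood at 8.99, 9.41 and 9.44 on the liver arrays, against 4.47 to 4.79 (median 4.71) on the gut arrays. Vsig4, a complement receptor of these cells, was at least 21.8-fold higher. Of the sinusoidal endothelium genes 9 of 11 were higher. Clec4g stood at 10.51, 10.76 and 10.76 on the liver arrays, against 3.48 to 4.01 (median 3.72) on the gut arrays and Stab2, a scavenger receptor, was at least 17.7-fold higher. Of the stellate cell genes 8 of 11 were higher in liver. Dcn, decorin, stood at 11.36, 11.25 and 11.42 on the liver arrays, against 4.17 to 11.15 (median 5.05) on the gut arrays, with its gut maximum on ileum array 2. Without that array and duodenum array 1 its difference was 6.38, against 5.67 with all arrays, and 9 genes of the list were called. Bile duct markers did not mark liver. Of 8 such genes 7 were lower in liver, among them Krt19, a keratin that gut epithelium is known to hold as well, at 5.11, 5.25 and 5.47 on the liver arrays, against 11.65 to 12.54 (median 12.01) on the gut arrays. Of the smooth muscle and stroma genes 0 of 12 were called by limma's treat test, with 1 higher and 0 lower at an unadjusted p under 0.05, and 3 higher with no minimum size. Without duodenum array 1 and ileum array 2, 1 of them was called higher in liver. Of the exocrine pancreas genes 4 of 16 were lower in liver with and without duodenum array 1 and ileum array 2. Over all arrays these were Clps, Pnliprp2, Rnase1 and Zg16, the last of which is also in the goblet cell list. The digestive enzyme genes Ctrb1, Cela1, Cpa1 and Prss2 were not called. The list's median difference was -1.44 over all arrays and -0.91 without those 2.

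Genes of T cells and of antigen presentation were mostly lower in liver, and those of B cells mostly were not called. Of the T cell genes 12 of 17 were lower in liver. Gzma, a granzyme, stood at 4.33, 4.14 and 4.49 on the liver arrays, against 10.08 to 11.32 (median 10.80) on the gut arrays. Cd3g, of the T cell receptor complex, stood at 4.24, 4.84 and 4.52 on the liver arrays, against 8.30 to 10.03 (median 9.75) on the gut arrays. Itgae, the integrin that holds T cells in epithelium, was at least 7.21-fold lower. Of 6 genes of MHC class II presentation all 6 were lower in liver, with Cd74, the invariant chain, at 8.35, 9.03 and 8.83 on the liver arrays, against 11.73 to 12.29 (median 12.09) on the gut arrays. Among B cell and plasma cell genes 1 of 13 was lower in liver, against 11.7% of all genes. It was Jchain, which joins secreted antibodies, at 5.41, 5.25 and 5.64 on the liver arrays, against 7.69 to 10.21 (median 8.98) on the gut arrays. The sensors and effectors of inflammasomes leaned the same way, with 10 of 16 lower in liver. Casp1, the gene absent from the null mice, stood at 4.29, 4.41 and 4.02 on the liver arrays, against 8.33 to 10.03 (median 9.29) on the gut arrays. Nlrc4, a sensor of bacterial flagellin, was at least 29.8-fold lower and Gsdmd, the pore protein of pyroptosis, 14.0-fold lower. Nlrp3 and Il1b were not called, at 1.07 ± 0.10 and 0.71 ± 0.22, with Nlrp3 called higher in the values as deposited. Il1a was at least 2.87-fold higher in liver.

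Clock and immediate early genes are given because fasting, feeding and sampling time differed between the groups or are unknown. Of 14 clock genes 1 was higher in liver and 3 lower, or 2 higher and 1 lower in the values as deposited, where Arntl and Cry1 lost their calls. Npas2 was lower in liver, at 5.71, 4.83 and 4.41 on the liver arrays, against 8.96 to 10.69 (median 9.91) on the gut arrays. Nr1d2 and Per1 were not called, at 0.077 ± 0.15 and -0.15 ± 0.13. Of 13 immediate early genes 4 were lower in liver. Fos stood at 3.79, 3.44 and 3.49 on the liver arrays, against 7.66 to 9.56 (median 9.03) on the gut arrays, at least 14.4-fold lower in liver, and Atf3 was 23.2-fold lower. Egr1 was not called, at 8.15 ± 0.93 in liver and 7.05 ± 0.62 in gut. Over all genes 8.94% were called higher in liver and 11.7% lower, and the counts of these small lists were not tested against those shares. The part of feeding state and handling in these values was not tested.

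Some genes were at like levels in both organs. The 10 genes with the highest lower-organ mean among those whose interval lay within 2-fold were Rn28s1, Rn7sk, Gapdh, Apoa1, Actb, Gm12070, Gm6981, Ldha, Eef1a1 and Atp5d. Their differences ran from -0.61 for Actb to 0.11 for Eef1a1. Of 18 housekeeping genes 17 were not called. Ywhaz, an adaptor protein, was lower in liver, at 10.80, 10.80 and 10.93 on the liver arrays, against 12.19 to 12.53 (median 12.40) on the gut arrays, a difference of -1.57 ± 0.084.

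Genes of microRNAs were searched after their values were seen. Of 306 such genes with a probe set, 16 were called (5.23%, against 20.6% of all genes), 8 in each direction. Of the 306, 244 lay under the shared median in both organs, among them the called genes Mir101b, Mir196a-1 and Mir350. A probe set reports the transcript of the hairpin gene and not a mature arm. The sequences of mature arms from 5 genes that were lower in liver are shown with their seed, bases 2 to 8, in capitals (RefSeq, GRCm38.p6), since the seed sets which messages they pair with.
miR-192-5p (chr19:6264857-6264877, plus strand): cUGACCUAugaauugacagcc
miR-215-5p (chr1:185313610-185313630, plus strand): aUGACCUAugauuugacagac
miR-194-5p (chr1:185313325-185313346, plus strand): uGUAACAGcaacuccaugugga
miR-200a-3p (chr4:156054911-156054932, minus strand): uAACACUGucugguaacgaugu
miR-200b-3p (chr4:156055685-156055706, minus strand): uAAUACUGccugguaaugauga
The arms of Mir192 and Mir215 share the seed UGACCUA, and the other 3 arms shown each have a seed of their own. Mir192 stood at 5.41, 5.18 and 5.66 on the liver arrays, against 6.83 to 7.74 (median 7.43) on the gut arrays. Mir215 stood at 3.40, 3.22 and 3.33 on the liver arrays, against 5.11 to 7.27 (median 6.59) on the gut arrays. The genes Mir215 and Mir194-1 lie next to each other on chromosome 1, and Mir194-1 was at least 2.63-fold lower in liver. Mir200b, of a family that guards epithelial identity, stood at 2.71, 2.78 and 2.95 on the liver arrays, against 5.40 to 6.82 (median 5.84) on the gut arrays. In the other direction, Mir122, the abundant microRNA of hepatocytes, stood at 7.95, 6.17 and 6.46 on the liver arrays, against 3.57 to 4.41 (median 3.80) on the gut arrays, at least 3.62-fold higher in liver. In Casp1-null mice Mir122 was not called, with a difference of 0.75 (adjusted p = 1). In wild type, liver and gut arrays overlapped for none of Mir192, Mir215, Mir194-1, Mir200a, Mir200b and Mir122. These 6 were picked from called genes, and over all genes liver lay wholly above gut in 20.5% and wholly below in 36.5%.

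The gut mean hid segments that lay on either side of liver. Against single segments the number of probe sets called was 5064 for duodenum (14.2%), 5190 for jejunum (14.6%) and 4776 for ileum (13.4%). In 1626 probe sets (4.57%) liver was higher than each segment and in 1981 (5.57%) lower than each. Of the 3883 called genes, 1791 (46.1%) also differed among the segments. There were 12 genes, 0.0638% of those tested, that were higher in liver than in some segment and lower than in another. Slc10a2, the ileal bile acid carrier, stood at 7.64 ± 0.39 in liver, 3.89 ± 0.45 in duodenum, 8.69 ± 1.18 in jejunum and 11.71 ± 0.21 in ileum (SD, n = 3 each). Slc40a1, the iron exporter ferroportin, stood at 10.10 ± 0.020 in liver, 11.86 ± 0.32 in duodenum, 4.85 ± 0.22 in jejunum and 8.62 ± 0.24 in ileum. Slc46a1, the proton-coupled folate carrier, stood at 9.56 ± 0.086 in liver, 12.46 ± 0.10 in duodenum, 8.69 ± 0.53 in jejunum and 7.28 ± 0.36 in ileum. The order of the segments thus differed among these 3 carriers, with ileum highest for Slc10a2 and duodenum highest for the other 2. Gata4, a factor of proximal gut, stood at 7.53 ± 0.12 in liver, 10.66 ± 0.077 in duodenum, 9.97 ± 0.27 in jejunum and 5.76 ± 0.64 in ileum. Enpp3, an ectonucleotidase, stood at 10.79 ± 0.18 in liver, 12.94 ± 0.060 in duodenum, 12.44 ± 0.10 in jejunum and 8.74 ± 0.78 in ileum. Suox, sulfite oxidase, stood at 9.10 ± 0.082 in liver, 6.97 ± 0.17 in duodenum, 7.49 ± 0.45 in jejunum and 11.06 ± 0.16 in ileum. Slc16a9, Ces2g, Zfpm1 and Gstm3 were highest in duodenum, while Slc25a48 and Abi3bp were highest in ileum.

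**Figure D5:**
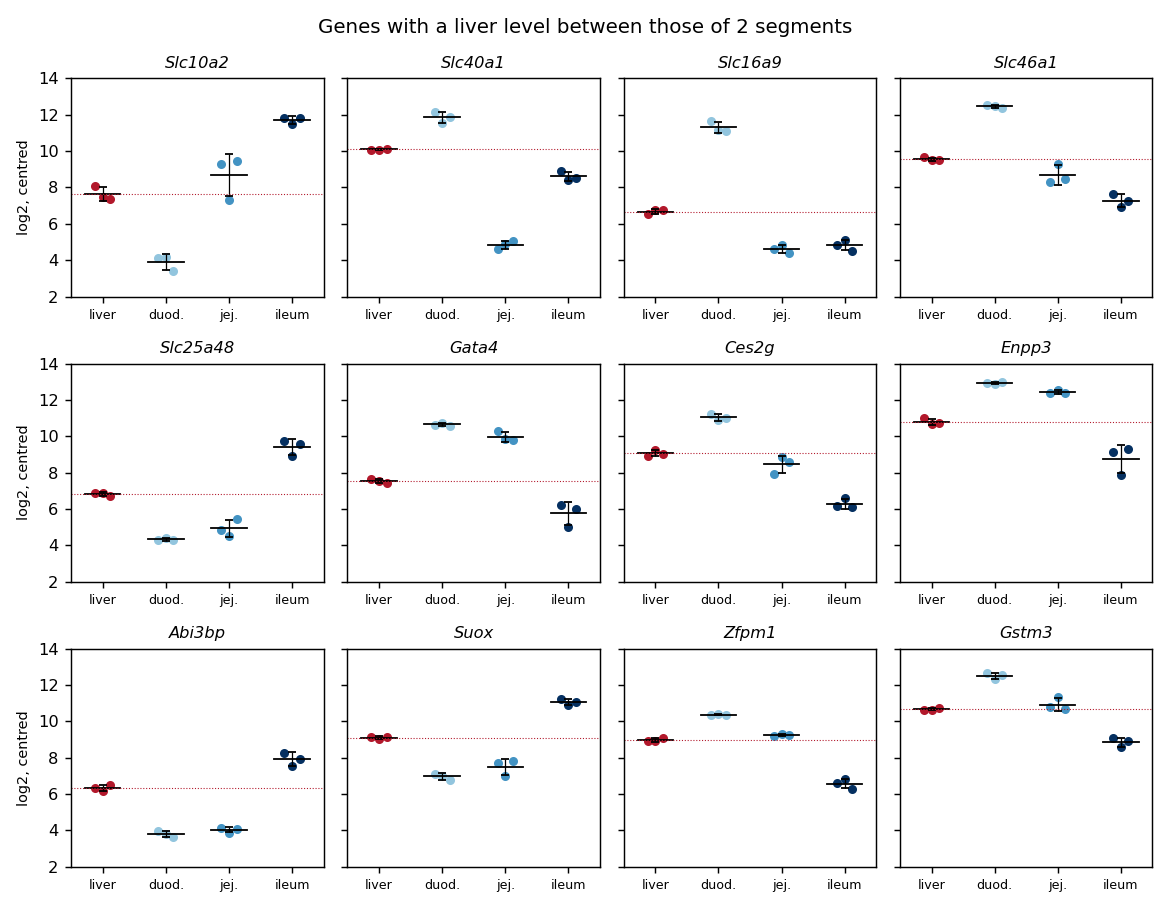
Each panel shows 1 of the 12 genes whose liver level lay above that of some segment and below that of another by more than 2-fold, with points for the 3 arrays of liver (red) and of each segment (blue shades), bars for the mean ± SD and a dotted line at the liver mean (log2, centred). Slc10a2 and Suox are highest in ileum, and Slc40a1 and Slc46a1 are highest in duodenum.

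The organ contrast was repeated in Casp1-null mice, on arrays the wild-type contrast did not use. There 4894 probe sets were called (13.8%), which covered 3599 genes (19.1% of those tested). Of the 3883 wild-type genes called, 3285 were also called in the same direction, which is 84.6% of the wild-type calls and 91.3% of the Casp1-null calls. By treat 0 of them were called in the opposite direction, and 6 had an opposite sign. Alb differed by 8.30 ± 0.43 in wild type and 8.01 ± 0.36 in Casp1-null mice. Sis differed by -7.44 ± 0.17 in wild type and -8.76 ± 0.11 in Casp1-null mice, and its interaction was called at 1.32 ± 0.21 (adjusted p = 0.0014). In liver Sis stood at 5.37 ± 0.49 in wild type, with array 2 the highest, and at 4.01 ± 0.25 in Casp1-null mice. Liver means were likewise higher in wild type for the other genes named above for bounded differences toward gut, except Mep1b. They were 5.17 against 4.13 for Muc13, 5.48 against 4.08 for Clca4b and 5.60 against 4.46 for Reg3b. Among wild-type liver arrays, array 2 was the highest for all genes so named but Gpa33 and Mep1b. Whether genotype or the liver samples themselves gave these shifts was not tested. The difference of the contrast between genotypes was called for 616 probe sets (1.73%, limma with no minimum size), or 450 genes (2.39%). The number of probe sets was 386 without wild-type liver array 2 and 970 without Casp1-null liver array 1. The 10 genes with the smallest p were Adh6-ps1, Cyp2c39, Asic5, Gm3893, Capn8, Moxd1, Clec2h, Igsf23, Serpinb1a and Asns. In all 10 the genotypes differed more in liver than in gut. Asns stood in wild type at 5.81 ± 0.24 in liver and 9.96 ± 0.76 in gut, and in Casp1-null mice at 9.87 ± 0.14 in liver and 9.94 ± 0.83 in gut. Its organ difference was therefore -4.15 in wild type and -0.069 in Casp1-null mice, an interaction of -4.08 ± 0.30 (adjusted p = 4.63e-08). Moxd1, a copper monooxygenase relative, stood at 3.52 ± 0.077 in wild-type liver and 8.84 ± 0.96 in Casp1-null liver, with 4.57 in wild-type gut and 4.27 in Casp1-null gut. Adh6-ps1, an alcohol dehydrogenase pseudogene, stood at 9.30 ± 0.18 in wild-type liver and 4.22 ± 0.021 in Casp1-null liver. Cyp2c39, a cytochrome with near-identical relatives, stood at 6.91 ± 0.33 in wild-type liver and 10.87 ± 0.077 in Casp1-null liver. For these 4 genes the organ difference in wild type did not hold at the same size in the other genotype.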

How the data were processed

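RNA from 12 wild-type samples, and from 12 Casp1-null samples as a second set, was hybridised to single-colour whole-transcript arrays per the labels' protocols; 100 ng was labelled per sample, and RNA integrity numbers exceeded 8.0. The deposited log2 values per probe set came from robust multi-array averaging (RMA), per the submitters' processing notes. Its version was not given in the sources used here. No detection calls were used. Arrays were centred here to a common median, 5.00 in wild type, since array medians as deposited lay between 5.20 and 5.22 in liver and between 4.87 and 5.00 in gut.

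For the tests, limma 3.58.1 was run under R 4.3.3, with treat at a log2 minimum of 1 and with eBayes for differences of any size, on 4 groups with 8 residual degrees of freedom, two-sided, with Benjamini-Hochberg adjustment over 35556 probe sets at 0.05. Casp1-null arrays were fitted on their own in the same way, and the interaction was fitted on all 24 arrays with 16 residual degrees of freedom. On simulated data with known changes, 93% of log2 changes of 2 and 97% of log2 changes of 3 were called, with 0 false calls. There the unchanged probe sets had equal means in all groups and independent normal noise. Small organ differences, differences between segments and arrays that stood apart were not simulated. The false calls in that setting therefore do not measure the error rate in these data. Precision is set by the number of arrays, and 0.00455 is the smallest p that an exact permutation of 3 against 9 arrays allows. Tables were handled with data.table (1.17.8) and, in Python 3.11.15, pandas 2.3.3. Plots were drawn with matplotlib 3.10.9.

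Exactly 1 gene symbol was carried by 21218 probe sets, several by 1881 and none by 12457. Identifiers of 21185 probe sets matched the RefSeq gene list of GRCm38.p6, used for names only. Each of 18820 genes was represented by its probe set with the highest mean over the 12 wild-type arrays. Of 273 called genes with further probe sets, 137 had the same call in all of them and 3 an opposite call in some.

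The lists, 50 with 792 measured genes, the pairs and the members were chosen with earlier results of these data known, and genes outside them and the rule are not reported. Named were list and pair members, the 15 genes with the largest difference in each direction with the lower mean set to the common median where it lay under it, the 10 with the widest gap between segments and the 2 others of that kind, the 10 shared genes with the highest level and the 10 with the smallest interaction p. Listed genes without a probe set of 1 symbol were not analysed here. Promoters (14739 genes matched) and mature microRNAs were read from RefSeq tables. Alternatives were the values as deposited, quantile normalization, another test, trend and robust fitting, array weights, a filter on low values, blocks by replicate number, other probe sets and leaving out arrays.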

Additional observations from a re-analysis of the deposited data

Results flagged for a closer look

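On 2 of the 9 wild-type gut arrays the mean level over a marker list lay far from that of the others. The rule used flags about 1 in 20 groups of like samples by chance. That rate does not carry over here, since the arrays came from 3 segments and many lists were read. The gap to the nearest gut array was 0.947 of the range for the pancreas genes and 0.905 for the smooth muscle and stroma genes. Duodenum array 1 had a mean of 10.2 over the exocrine pancreas genes, against 5.62 to 5.86 on the other gut arrays. Ileum array 2 had a mean of 8.68 over the smooth muscle and stroma genes, against 4.33 to 4.74 on the others, and of 6.55 over the stellate cell genes, the highest of the gut arrays. It also had the lowest mean over the T cell genes, 6.5. The effect of these arrays on the counts is given with the results above.

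The organ difference differed between wild type and Casp1-null mice by the interaction term in 10 genes with the smallest p, given as wild type minus Casp1-null on the log2 scale. It was positive for Adh6-ps1 (5.15), Clec2h (3.72), Gm3893 (3.37) and Serpinb1a (2.05). It was negative for Moxd1 (-5.61), Cyp2c39 (-4.1), Asic5 (-4.09), Asns (-4.08), Capn8 (-2.97) and Igsf23 (-2.87). Each group held 3 arrays.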

How the results depend on the processing

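No alternative fit turned the direction of a called gene among those listed or named. These fits kept the same probe set for each gene. Over all called genes with further probe sets, 3 had an opposite call in some of them. Of 528 called genes among the 823 listed or named, 503 kept their call under each of the 22 alternatives in which they were tested. The filter on low values tested 733 of the 823. Of the genes that were not called, 72 changed sign under some alternative, none with a difference above 0.686. With eBayes and a 2-fold minimum in place of treat, 8299 probe sets were called, 3528 higher in liver and 4771 lower. With no minimum size, 12786 were higher and 9739 lower in the values as deposited, and the filter on low values, which left fewer probe sets to test, gave 13573 (5262 higher and 8311 lower). That filter gave 198 lower calls in the interaction. For duodenum, jejunum, ileum and the Casp1-null set, 44, 42.8, 41.9 and 41.1% of calls were higher in liver after centring, and 56.7, 56.5, 53.5 and 54% in the values as deposited. Leaving out each array in turn gave 4832 to 5660 calls in wild type and 386 to 970 in the interaction (186 to 503 positive and 200 to 467 negative). The replicate numbers were not taken as pairs, since the labels do not link an array to a mouse. Deviations from the group mean of same-numbered gut arrays correlated at -0.098 to 0.15 and those of other numbers at -0.12 to 0.22. With 3 arrays a group, these overlapping ranges cannot decide whether arrays with the same number came from the same mouse. Leaving out duodenum array 1 and ileum array 2 together, an alternative chosen after seeing the data, gave 5663 calls. With the replicate block 5282 probe sets were called, and 5259 with a random block in gut.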
